A study of Mus musculus with 16 samples.

Results

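Serum amyloid A, orosomucoid and other secreted proteins of the acute phase reaction were followed across mouse liver as 10 genes, taken as the rows of the deposited gene table named Saa1, Saa2, Saa3, Saa4, Orm1, Orm2, Orm3, Hp, Lcn2 and Apcs. All 10 were found among 23258 rows, and all 10 were kept among the 16830 genes tested. The study sequenced total RNA, depleted of ribosomal RNA, from the livers of C57BL/6 mice that were wild type or lacked miR-33, a microRNA that represses genes of cholesterol and fatty acid metabolism, in the liver. The 16 libraries fell into 4 groups: wild type on chow (n = 3), liver knockout on chow (n = 4), wild type on high-fat diet (n = 4) and liver knockout on high-fat diet (n = 5). The name of the deposited table carries Alb-Cre, Cre recombinase under the albumin promoter, which is active in hepatocytes; the labels do not say which groups carried it, nor age, sex, or the length and composition of the diets. They also do not say that each library was a separate animal, so p-values measure the spread between these libraries. Total estimated counts ran from 15888436 to 29469645 per library. Replicate numbers only name libraries.

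The acute phase reaction is the change in secreted liver proteins that follows infection or injury. Interleukin-6 acts through STAT3, interleukin-1 and tumour necrosis factor act through NF-kB, and C/EBP factors bind next to both at the promoters of these genes in hepatocytes. Saa1 and Saa2 encode the acute phase serum amyloid A proteins, which ride on high-density lipoprotein; Saa3 is also made by macrophages and fat, and Saa4 encodes the constitutive form. Orm1, Orm2 and Orm3 encode orosomucoid, or alpha-1-acid glycoprotein, which binds small basic drugs and lipids in plasma. Haptoglobin (Hp) captures free haemoglobin, lipocalin-2 (Lcn2) withholds iron from bacteria by binding their siderophores, and serum amyloid P (Apcs) is a pentraxin that binds amyloid and cell debris.

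Both multi-copy families are tandem copies, between which reads must be divided. In mm10 the 4 serum amyloid A genes lie together on chromosome 7, with Saa3 at chr7:46711998-46715700, Saa4 at chr7:46727998-46732603 and Saa1 at chr7:46740497-46742980 on the minus strand, and Saa2 at chr7:46751790-46754313 on the plus strand. The 3 orosomucoid genes lie on the plus strand of chromosome 4, Orm1 at chr4:63344560-63348163, Orm3 at chr4:63356162-63359511 and Orm2 at chr4:63362449-63365878. The remaining genes stand alone on the minus strand: Hp at chr8:109575128-109579172, Lcn2 at chr2:32384633-32388252 and Apcs at chr1:172893961-172895041. The Saa1 and Saa2 transcripts were 94.4% identical over 606 aligned bases, yet only 2 of the 535 stretches of 75 bases (the read length in the labels) in Saa1 also occurred in Saa2. Orm1 and Orm2 were 91.0% identical and shared 97 of 701 such stretches (13.8%), while Orm2 and Orm3 were 88.5% identical and shared 1. How the authors divided reads from shared stretches is not stated, so single values of Orm1 and Orm2 are less certain than those of the other members. No annotated gene overlapped a member.

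Promoter windows from RefSeq (GRCm38.p6, 250 bases before to 50 after the start of transcription) were found for 8 members, all but Orm1 and Hp. The windows of Saa1, Saa2 and Saa3 and of Orm2 and Orm3 are printed because these are the copies whose levels moved together or apart in the livers. Capitals mark matches to TTNNGNAA, a loose form of the C/EBP site, searched on both strands; no match to the STAT or NF-kB letters given below fell in these 5 windows. Each is written 5′ to 3′ on the strand of its gene.
Saa1, chr7:46742931-46743230, minus strand: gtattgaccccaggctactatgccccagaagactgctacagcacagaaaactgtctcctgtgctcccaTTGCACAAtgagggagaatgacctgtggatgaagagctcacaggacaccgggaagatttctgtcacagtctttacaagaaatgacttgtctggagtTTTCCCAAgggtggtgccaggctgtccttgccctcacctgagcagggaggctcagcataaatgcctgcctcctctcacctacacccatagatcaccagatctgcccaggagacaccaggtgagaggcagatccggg
Saa2, chr7:46751583-46751882, plus strand: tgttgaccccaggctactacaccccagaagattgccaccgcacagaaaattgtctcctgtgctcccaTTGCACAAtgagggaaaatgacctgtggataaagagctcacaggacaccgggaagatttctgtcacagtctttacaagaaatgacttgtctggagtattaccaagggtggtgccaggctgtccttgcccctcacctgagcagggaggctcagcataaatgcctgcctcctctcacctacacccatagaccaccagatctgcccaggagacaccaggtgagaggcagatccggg
Saa3, chr7:46715627-46715926, minus strand: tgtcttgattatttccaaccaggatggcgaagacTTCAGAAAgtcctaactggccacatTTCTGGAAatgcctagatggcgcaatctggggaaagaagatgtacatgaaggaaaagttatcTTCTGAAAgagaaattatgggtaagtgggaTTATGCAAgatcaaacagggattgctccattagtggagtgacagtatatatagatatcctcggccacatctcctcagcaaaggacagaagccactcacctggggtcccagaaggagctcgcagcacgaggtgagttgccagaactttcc
Orm2, chr4:63362199-63362498, plus strand: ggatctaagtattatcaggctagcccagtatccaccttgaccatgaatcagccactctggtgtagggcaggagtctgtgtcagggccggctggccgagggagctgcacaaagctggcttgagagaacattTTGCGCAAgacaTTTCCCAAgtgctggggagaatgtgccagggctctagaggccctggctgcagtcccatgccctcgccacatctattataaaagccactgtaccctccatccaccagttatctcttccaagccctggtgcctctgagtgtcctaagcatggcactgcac
Orm3, chr4:63355908-63356207, plus strand: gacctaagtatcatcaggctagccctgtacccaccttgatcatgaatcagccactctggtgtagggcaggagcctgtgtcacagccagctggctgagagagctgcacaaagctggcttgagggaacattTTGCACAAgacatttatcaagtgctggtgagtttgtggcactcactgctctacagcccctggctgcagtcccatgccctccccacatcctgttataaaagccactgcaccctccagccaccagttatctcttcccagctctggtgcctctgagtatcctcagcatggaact

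The Saa1 and Saa2 windows were 96.0% identical over 299 aligned bases, although the genes point in opposite directions. Both held TTGCACAA, at 182 bases before the start in Saa1 and 183 in Saa2, and the Saa1 window held a further match, TTTCCCAA, 86 bases before the start. The Saa3 window was 61.0% identical to that of Saa1 and had 4 matches, between 216 and 99 bases before the start. The Orm2 and Orm3 windows were 89.2% identical; Orm2 had matches 120 and 108 bases before its start and Orm3 had 1, at 121. At least 1 match was present in 7 of the 8 windows, against 40.7% of all 32851 promoter windows, and since copies share sequence these 7 are not independent. The STAT letters TTCNNNGAA were found in 1 window, Apcs (8.30% of all windows), and the NF-kB letters GGGANNTTC in none (3.94% of all windows). The letters TATAAA were found in Orm2 and Orm3 alone (13.6% of all windows). These matches describe letters and no binding was measured.

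Levels are given as CPM, counts scaled to a common library size with library totals adjusted by the trimmed mean of M-values. Per kilobase of transcript, on high-fat diet in wild type, haptoglobin was by far the most abundant at 3348 ± 340 CPM per kilobase (SD, n = 4). Orm1 followed at 532 ± 31.5, Saa1 at 258 ± 26.7 and Saa4 at 181 ± 29.1 CPM per kilobase. Saa2 at 84.1 ± 7.73, Lcn2 at 77.0 ± 25.3 and Apcs at 75.3 ± 13.7 CPM per kilobase lay within each other's spread. Orm2 at 53.8 ± 3.99 had a lower mean but lay within the spread of Lcn2, and Saa3 at 10.9 ± 2.83 and Orm3 at 8.42 ± 1.29 CPM per kilobase were the lowest, with overlapping spreads. Orm1 was thus the main orosomucoid transcript and Orm3 a minor one.

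A single chow library set most of the extremes. Chow wild type 3 was the highest of all 16 libraries for 7 of the 10 genes (Saa1, Saa2, Orm1, Orm2, Hp, Lcn2 and Apcs) and the highest of the 7 chow libraries for 8, while it held the top chow value for 18.6% of all tested genes. Its ribosomal RNA share, the counts of gene CT010467.1 that survived depletion, was 2.54%, against 11.3% to 14.6% in the other 6 chow libraries. The 4 high-fat libraries with the lowest shares, 0.637% to 3.56%, read 95.7 to 165 CPM for Saa1. On high-fat diet, knockout 1 was the highest of all 16 for Saa3 and Saa4. That library also had the lowest summed hepatocyte markers (83171 CPM, against 88864 to 108045 in the other high-fat libraries) and the highest B and plasma cell markers (170 CPM, against 7.99 to 32.9). The part of these differences in the member genes was not tested. Values that moved most without either library are given with and without it.

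**Figure D1:**
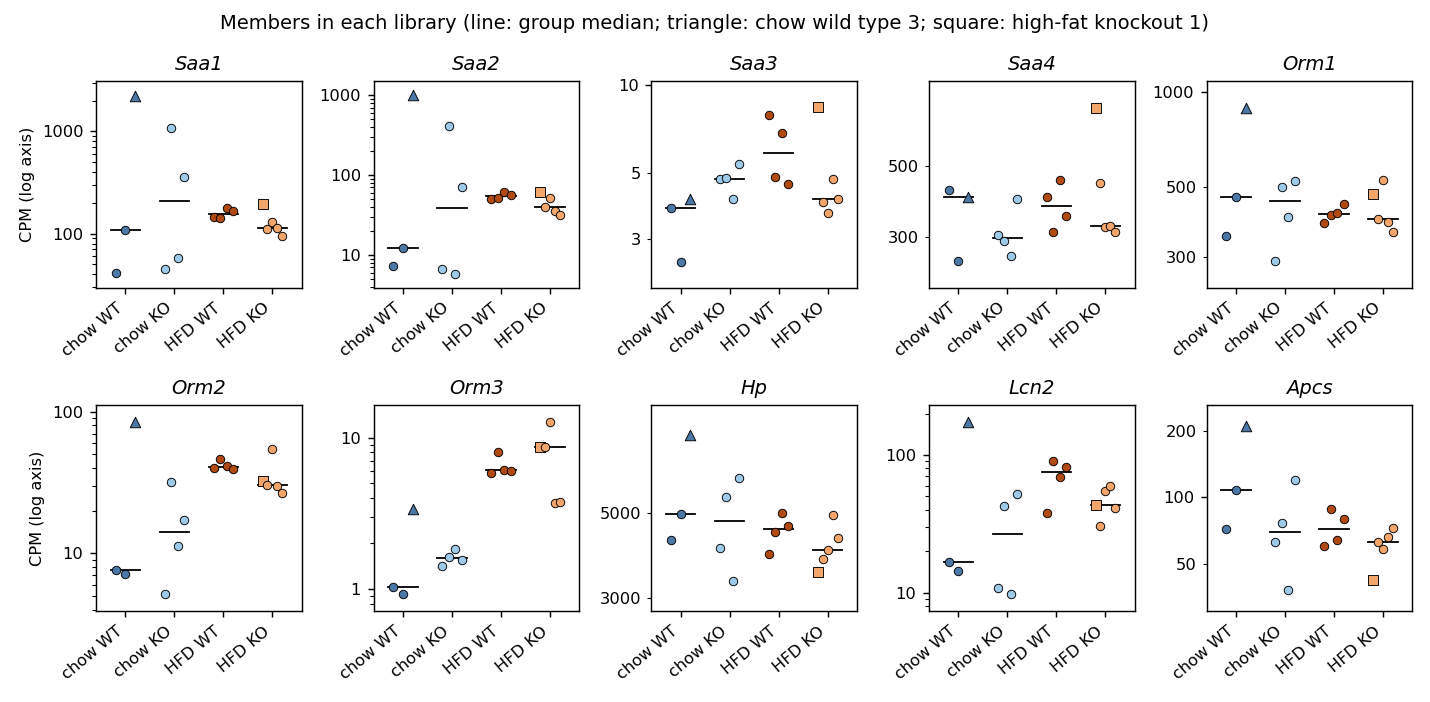
CPM of the 10 genes in each of the 16 libraries (log axis), by diet (chow; HFD, high-fat diet) and genotype (WT, wild type; KO, liver miR-33 knockout); each point is a library and each line a group median. Chow wild type 3 (triangle) is the highest point for 7 genes, and the Saa1 and Saa2 values scatter widely on chow and lie close together on high-fat diet.

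The acute phase serum amyloids, Saa1 and Saa2, differed far more between chow livers than between groups. In chow wild type Saa1 read 41.5, 107 and 2221 CPM, and in chow knockout 45.4, 1073, 57.9 and 360 CPM. On chow, 1 wild-type and 2 knockout libraries were therefore high and the other 4 low, and the genotypes overlapped. On high-fat diet Saa1 was 146, 141, 176 and 165 CPM in wild type and 193, 111, 130, 114 and 95.7 CPM in knockout. All 9 high-fat values lay inside the range of the chow values of the same genotype. The spread between the highest and the lowest library fell from 53.5-fold in chow wild type to 1.25-fold in high-fat wild type.

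Saa2 was high in the same 3 chow libraries as Saa1, with a steeper range. Its values were 7.29, 12.4 and 1012 CPM in chow wild type and 6.74, 408, 5.81 and 70.1 CPM in chow knockout. The highest and lowest of the 16 libraries differed 174-fold, the widest range of the 10 genes. High-fat wild type read 49.7, 52.1, 61.2 and 56.2 CPM, and high-fat knockout 61.2, 39.5, 52.0, 35.6 and 31.96 CPM. Each high-fat library was thus above the low chow libraries and below the highest chow library of its genotype.

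The mean of Saa1 was 790 ± 1239 CPM in chow wild type and 157 ± 16.3 CPM in high-fat wild type (SD), and this difference did not pass (log2 fold change -2.33 ± 1.21 SE, adjusted p = 0.171, edgeR quasi-likelihood test, Benjamini-Hochberg over all genes). For Saa2 it was -2.65 ± 1.52 with adjusted p = 0.217. Without chow wild type 3 the differences turned to 1.08 and 2.49, again without passing (adjusted p = 0.493 and 0.242). In knockout the diet differences were -1.58 ± 1.05 for Saa1 and -1.48 ± 1.32 for Saa2 (adjusted p = 0.273 and 0.417).

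Between genotypes, Saa1 differed by -1.04 ± 1.18 on chow and -0.29 ± 1.04 on high-fat diet (knockout minus wild type, log2, SE), and Saa2 by -1.48 ± 1.48 and -0.32 ± 1.32. The adjusted p was 0.942 and 0.935 on chow and rounded to 1.00 for both on high-fat diet. With chow wild type 3 left out the chow differences became 2.37 ± 1.11 for Saa1 and 3.65 ± 1.51 for Saa2, so their direction rested on that library. The fit shares 1 spread per gene over all groups; with the 9 high-fat libraries alone, the differences were -0.29 ± 0.18 and -0.32 ± 0.18, still with adjusted p = 0.999.

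Ranked by the standard deviation of log2 CPM within chow groups, Saa2 (3.35) was first and Saa1 (2.54) second of 13439 genes with a mean of at least 1 CPM. On high-fat diet both stood at 0.306, at ranks 3050 and 3060. Lcn2 (1.61, rank 12) and Orm2 (1.53, rank 17) were also among the most variable on chow, and fell to 0.463 (rank 999) and 0.312 (rank 2912). The median gene had 0.207 on chow and 0.187 on high-fat diet. Apcs, Orm1 and Hp showed the same order at smaller size, with 0.724, 0.530 and 0.440 on chow and 0.282, 0.180 and 0.174 on high-fat diet. Saa3 (0.265 on chow, 0.432 on high-fat diet) and Saa4 (0.322 and 0.442) went the other way, and Orm3 was nearly equal (0.632 and 0.611). In a recalculation chosen after seeing the data, without chow wild type 3 and high-fat knockout 1, the order changed for Saa4 (0.341 on chow, 0.237 on high-fat diet), Saa3 was nearly equal (0.249 and 0.283) and Orm3 was less variable on chow (0.141) than on high-fat diet (0.637). Without them Saa2 (2.55) and Saa1 (1.95) stood at ranks 1 and 3 on chow, and Lcn2 (1.11) and Orm2 (0.946) at ranks 64 and 103. Chow groups held 3 and 4 libraries and high-fat groups 4 and 5; the difference in spread between diets was described and not tested.

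**Figure D2:**
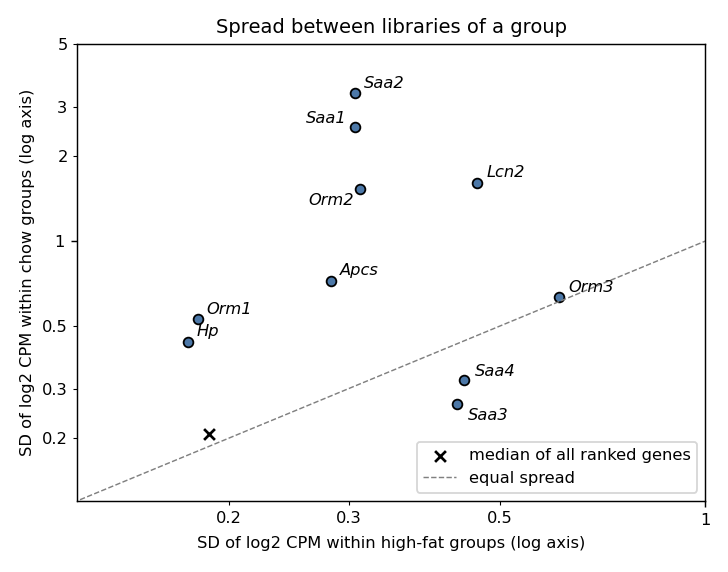
Standard deviation of log2 CPM between libraries of a group, pooled over both genotypes, on high-fat diet (horizontal, log axis) and on chow (vertical, log axis), with a point for each gene, the median of all 13439 ranked genes as a cross and the line of equal spread dashed. Saa2, Saa1, Lcn2 and Orm2 lie far above the line; Saa3 and Saa4 lie below it with all 16 libraries, and Saa4 does not without chow wild type 3 and high-fat knockout 1.

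The balance of the 2 acute phase copies also differed between libraries. Saa2 made up 14.9% (Wilson 95% interval 12.9 to 17.2), 10.3% (9.11 to 11.7) and 31.3% (30.9 to 31.7) of the summed Saa1 and Saa2 counts in chow wild type. In chow knockout its share was 12.9% (10.9 to 15.2), 27.5% (27.1 to 28), 9.12% (7.41 to 11.2) and 16.3% (15.6 to 17.0). The 2 largest shares belonged to the 2 chow libraries with the most Saa1. On high-fat diet all 9 shares lay between 23.7% and 28.6%, although the summed level there, 128 to 254 CPM, was no higher than the 430 CPM of chow knockout 4, whose share was 16.3%. The intervals cover counting error only, and not how reads were divided between the 2 copies.

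As group means, the Saa2 share was 25.9% on high-fat diet against 18.9% on chow in wild type (exact two-sided permutation p = 0.314) and 25.5% against 16.5% in knockout (exact p = 0.0556). The Orm2 share of the 3 orosomucoids was 9.07% against 4.08% in wild type (exact p = 0.0571) and 7.25% against 3.39% in knockout, where the groups did not overlap (exact p = 0.00794, the smallest that 126 regroupings give). Knockout differed from wild type on high-fat diet by -1.82 percentage points in the Orm2 share (exact p = 0.0397) and by -0.347 in the Saa2 share (exact p = 0.770). On chow these genotype differences were -0.690 and -2.40 percentage points (exact p = 0.771 and 0.686). Over the 8 tests no Benjamini-Hochberg adjusted p was under 0.05; the lowest was 0.0635.

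**Figure D3:**
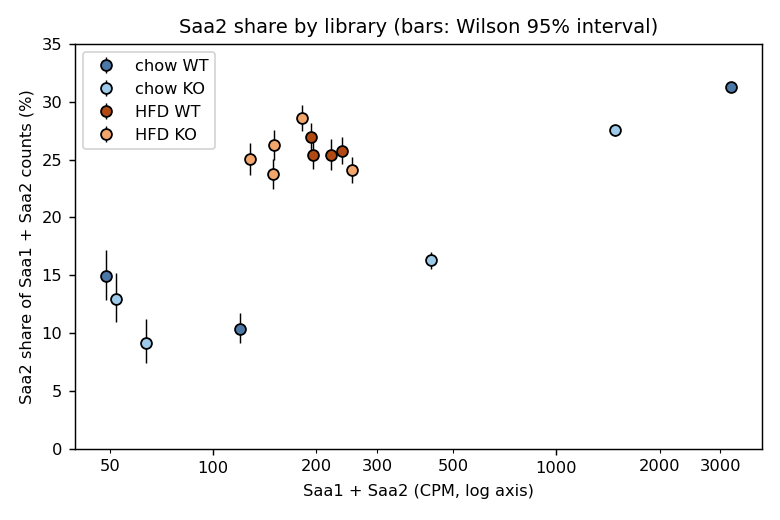
Share of Saa2 in the summed Saa1 and Saa2 counts (vertical, percent, Wilson 95% interval as bars) against their summed level (horizontal, CPM, log axis), with a point for each library coloured by group. High-fat libraries cluster between 23.7% and 28.6%, and chow libraries run from 9.12% at low level to 31.3% at the highest level.

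Saa3, the form also made by macrophages and fat, was low in every liver and was one of 2 members that rose with diet in wild type. It read 3.81, 2.50 and 4.08 CPM in chow wild type and 7.87, 4.87, 6.86 and 4.62 CPM in high-fat wild type. These groups did not overlap, and the rise was 1.75-fold (log2 0.80 ± 0.28 SE, edgeR adjusted p = 0.0352). In knockout Saa3 was 4.78, 4.82, 4.11 and 5.39 CPM on chow and 8.42, 4.01, 3.67, 4.78 and 4.10 CPM on high-fat diet. There only library 1 stood above the chow values, and the difference was 0.05 ± 0.23 (adjusted p = 0.899).

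The wild-type rise in Saa3 was close to the threshold. It no longer passed when chow wild type 1 (adjusted p = 0.0591), chow wild type 2 (0.158), high-fat wild type 1 (0.0965) or high-fat wild type 3 (0.0760) was left out. The difference between the 2 diet responses was -0.76 ± 0.36 (adjusted p = 0.753) and did not pass, so Saa3 was not shown to respond differently in knockout. Without high-fat knockout 1 it was -1.01 ± 0.28 (adjusted p = 0.506). On chow all 4 knockout values were above all 3 wild-type values, the nearest at 4.11 and 4.08 CPM, a difference of 0.46 ± 0.28 that did not pass (adjusted p = 0.897).

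Macrophage markers were higher on high-fat diet in both genotypes, while Saa3 passed in wild type alone. The summed level of 16 Kupffer cell and macrophage markers was 241 to 439 CPM in chow wild type, 411 to 464 in chow knockout, 604 to 1069 in high-fat wild type and 562 to 1010 in high-fat knockout. Of these 16, 12 rose and none fell with diet in wild type, and 8 rose and 1 fell in knockout. Beside them, 29.4% of all genes passed in wild type (15.2% upwards) and 33.6% in knockout (17.4% upwards). Among the high-fat wild-type libraries, Saa3 was highest in library 1, where the marker sum was lowest (604 CPM), and the sum was highest in library 2 (1069 CPM), where Saa3 was 4.87 CPM. Among the high-fat knockout libraries, both were highest in library 1, with a marker sum of 1010 CPM and Saa3 at 8.42 CPM. The part of macrophages in the Saa3 result was not tested. In whole liver, more cells of a type and more RNA per cell cannot be told apart. Adiponectin (Adipoq), which defines fat cells, was at 0 in 9 libraries and at most 0.212 CPM in any.

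Saa4, the constitutive serum amyloid, did not pass in any comparison. It read 422, 253 and 400 CPM in chow wild type, 304, 291, 262 and 396 in chow knockout, 400, 312, 452 and 349 in high-fat wild type and 762, 445, 322, 326 and 310 CPM in high-fat knockout. All groups overlapped, and knockout 1 on high-fat diet stood alone at the top. The diet difference was 0.08 ± 0.29 in wild type and 0.47 ± 0.26 in knockout (edgeR adjusted p = 0.872 and 0.183), the latter 0.18 without that library.

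Among the orosomucoids, the minor copy Orm3 gave the clearest diet difference of the 10 genes. Its levels were 1.03, 0.932 and 3.37 CPM in chow wild type and 5.89, 7.999, 6.15 and 6.00 CPM in high-fat wild type. In knockout they were 1.41, 1.64, 1.84 and 1.55 CPM on chow and 8.71, 8.64, 12.6, 3.70 and 3.73 CPM on high-fat diet. Within each genotype every high-fat library exceeded every chow library. The rise was 3.71-fold in wild type (log2 1.89 ± 0.47 SE, adjusted p = 0.0064) and 4.66-fold in knockout (log2 2.22 ± 0.41 SE, adjusted p = 6.9e-04).

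Orm3 passed in both genotypes in each of 25 alternative fits, with log2 differences from 1.60 to 2.73 in wild type and from 1.94 to 2.39 in knockout. It rested on 16 to 57 counts per library in chow wild type and 26 to 38 in chow knockout, and on 106 to 416 in high-fat livers. Genotype made no difference that passed, at -0.13 ± 0.51 on chow (0.70 ± 0.51 with chow wild type 3 left out) and 0.20 ± 0.35 on high-fat diet. On high-fat diet the knockout libraries split into 3 high and 2 low values, and the 4 wild-type libraries lay between them.

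For Orm2 the diet difference in wild type rested on 1 library. It read 7.62, 7.16 and 84.5 CPM in chow wild type and 39.9, 46.1, 41.4 and 39.3 CPM in high-fat wild type. With all libraries the diet difference was 0.34 ± 0.76 (adjusted p = 0.773), and without chow wild type 3 it was 2.49 ± 0.58 (adjusted p = 0.0092). In knockout it was 5.16, 31.8, 11.3 and 17.1 CPM on chow and 32.3, 30.1, 54.3, 29.96 and 26.5 CPM on high-fat diet. Only chow knockout 2 reached the high-fat values, and the difference was 1.07 ± 0.68 (adjusted p = 0.253).

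Orm1, the abundant copy, showed no such pattern. It was 351, 464 and 894 CPM in chow wild type, 291, 500, 403 and 521 in chow knockout, 384, 408, 414 and 443 in high-fat wild type and 474, 397, 527, 388 and 360 CPM in high-fat knockout. The diet difference was -0.47 ± 0.26 in wild type (adjusted p = 0.197) and 0.00 ± 0.23 in knockout (0.997). The former became -0.72 without chow wild type 1 (adjusted p = 0.0379), and without chow wild type 3 it was 0.02 (0.959), so 2 libraries of the same group decide it in opposite directions. Summed as 1 row, which avoids dividing reads between copies, the 3 orosomucoids differed by -0.39 ± 0.28 in wild type and 0.08 ± 0.25 in knockout (adjusted p = 0.319 and 0.841). Thus the rise of Orm3 was not visible in the sum, most of which is Orm1.

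Lcn2, the siderophore-binding protein, resembled Orm2. It read 16.7, 14.4 and 175 CPM in chow wild type and 38.1, 90.3, 68.9 and 82.3 CPM in high-fat wild type, a difference of 0.03 ± 0.81 (adjusted p = 0.983). Without chow wild type 3 the difference was 2.16 ± 0.68 (adjusted p = 0.0402). Chow knockout gave 10.8, 42.5, 9.70 and 52.5 CPM and high-fat knockout 43.3, 30.7, 54.4, 60.0 and 41.3 CPM, with a difference of 0.65 ± 0.73 (adjusted p = 0.526). The 2 low knockout libraries on chow lay under all high-fat values and the 2 high ones within them. Knockout was below wild type by 1.23 ± 0.82 on chow and 0.61 ± 0.71 on high-fat diet (log2), neither of which passed (adjusted p = 0.901 and 1.00); with chow wild type 3 left out, knockout was above wild type on chow by 0.90 ± 0.65. With the 9 high-fat libraries alone this value was -0.61 ± 0.27 (adjusted p = 0.999).

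Neutrophils carry lipocalin-2 in their granules. Summed over the 12 markers in the table, neutrophil transcripts were 2.72 to 3.72 CPM in chow wild type, 3.33 to 7.38 in chow knockout, 5.94 to 13.3 in high-fat wild type and 5.38 to 8.66 in high-fat knockout. These sums are low, and 6 of the 12 markers had counts high enough to be tested. Chow wild type 3 had the lowest sum of all libraries, 2.72 CPM, together with the highest Lcn2. In chow knockout, library 4 had both the highest sum, 7.38 CPM, and the highest Lcn2, 52.5 CPM. The part of neutrophils was not tested, either for these libraries or for the difference between diets.

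Haptoglobin, the most abundant member, had the narrowest range, 2.42-fold between the highest and lowest of the 16 libraries. It was 4250, 4967 and 8039 CPM in chow wild type, 4064, 5510, 3317 and 6201 in chow knockout, 3917, 4454, 5020 and 4620 in high-fat wild type and 3504, 3792, 4015, 4964 and 4304 CPM in high-fat knockout. Only chow wild type 3 stood clear of the rest. Its diet differences were -0.35 ± 0.21 in wild type and -0.21 ± 0.19 in knockout (edgeR adjusted p = 0.233 and 0.407), the former -0.03 without chow wild type 3. Its genotype differences were -0.27 ± 0.21 on chow and -0.13 ± 0.19 on high-fat diet, with the smallest standard errors of the 10 genes; the chow value was 0.05 without chow wild type 3.

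Apcs, the pentraxin, was highest in chow wild type 3 and did not pass in any comparison. It read 72.2, 108 and 210.5 CPM in chow wild type, 62.5, 76.8, 38.1 and 120 in chow knockout, 60.1, 88.7, 64.1 and 79.6 in high-fat wild type and 42.4, 62.8, 58.4, 65.9 and 72.9 CPM in high-fat knockout. All groups overlapped. The genotype difference on chow was -0.80 ± 0.37 (adjusted p = 0.839) and the wild-type diet difference -0.83 ± 0.37 (adjusted p = 0.114); these share the chow wild-type libraries. They were -0.27 and -0.30 without chow wild type 3, and without chow wild type 1 the diet difference was -1.12 (adjusted p = 0.0421).

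Across the 10 genes, loss of miR-33 gave no difference that passed. On high-fat diet 0 of 10 passed, with a median log2 difference of -0.27 and 7 below 0, beside 0.00594% of all genes that passed. On chow 0 of 10 passed, with a median of -0.61 and 9 below 0, again beside 0.00594%. As a mean over both diets 0 of 10 passed (0.0178% of all genes), and for the difference between the 2 genotype effects 0 of 10 (0% of all genes). The edgeR test gave no member an unadjusted p under 0.05 in any of these 4 comparisons, while 641, 1001, 586 and 1110 of all genes had one; DESeq2 and limma-voom also called 0 members. On high-fat diet 0 of 10 genes had groups that did not overlap (1.24% of all genes), and on chow 1 of 10, Saa3 (5.62%). Without chow wild type 3, the chow differences of 7 genes (Saa1, Saa2, Orm1, Orm2, Orm3, Hp and Lcn2) changed from below 0 to above 0, none passing.

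For diet, in wild type 2 of 10 passed, Orm3 and Saa3, both higher; 29.4% of all genes passed in either direction and 15.2% upwards. In knockout 1 of 10 passed, Orm3, higher, beside 33.6% in either direction and 17.4% upwards. Groups did not overlap for 2 of 10 in wild type (36% of all genes) and for 1 of 10 in knockout (26.5%). With chow wild type 3 left out the wild-type count was 4, with Orm2 and Lcn2 added, all higher. The shares above belong to the fit of all libraries, where 4946 genes passed for diet in wild type. Over the fits without single libraries, 3711 to 5102 genes passed. The 2 diet comparisons share no library, but each shares a group with both genotype comparisons.

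**Figure D4:**
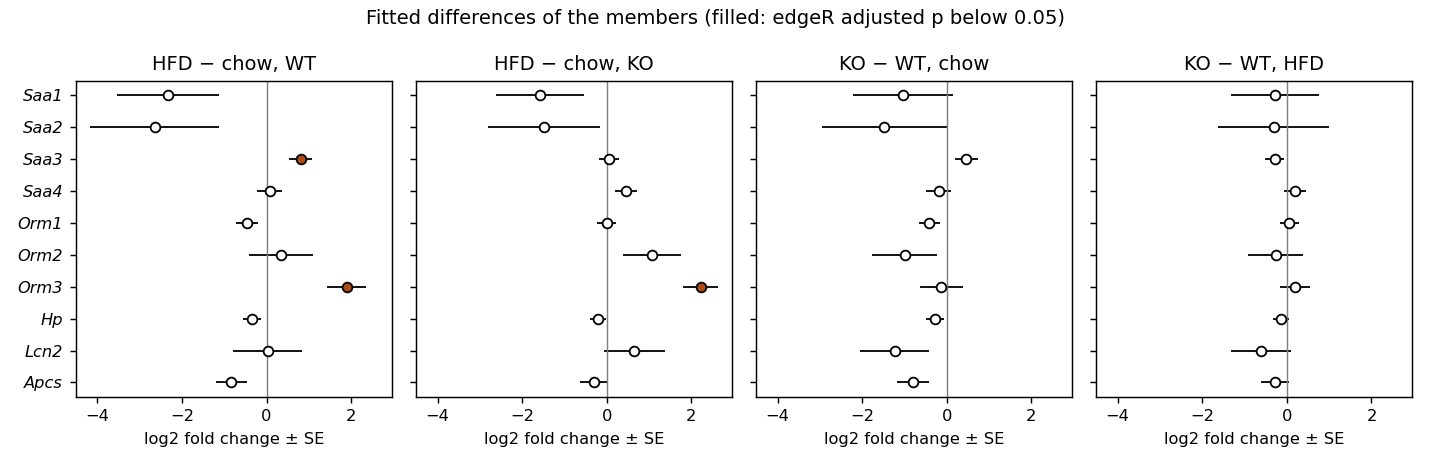
Fitted log2 differences (horizontal, bars ± SE) of the 10 genes for diet within each genotype and for genotype within each diet, from the fit of all 16 libraries; filled points passed at an adjusted p of 0.05. Orm3 in both genotypes and Saa3 in wild type are filled, and the bars of Saa1 and Saa2 are the widest in every panel.

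Deviations of each library from its group mean showed which members varied together. Over 16 libraries, Pearson's r with the mean of Saa1 and Saa2 was 0.92 for Orm2, 0.89 for Lcn2, 0.87 for Orm1, 0.80 for Hp, 0.69 for Apcs, 0.52 for Orm3, 0.28 for Saa3 and 0.23 for Saa4. Saa3 and Saa4 varied with each other (r = 0.86), where high-fat knockout 1 was highest for both. These values are descriptions of 16 libraries that share a fit and a few wide chow deviations. In chow knockout, library 4 was the highest of its group for 6 members and library 2 for 3, whereas library 3 was the lowest for 6 and library 1 for 4.

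**Figure D5:**
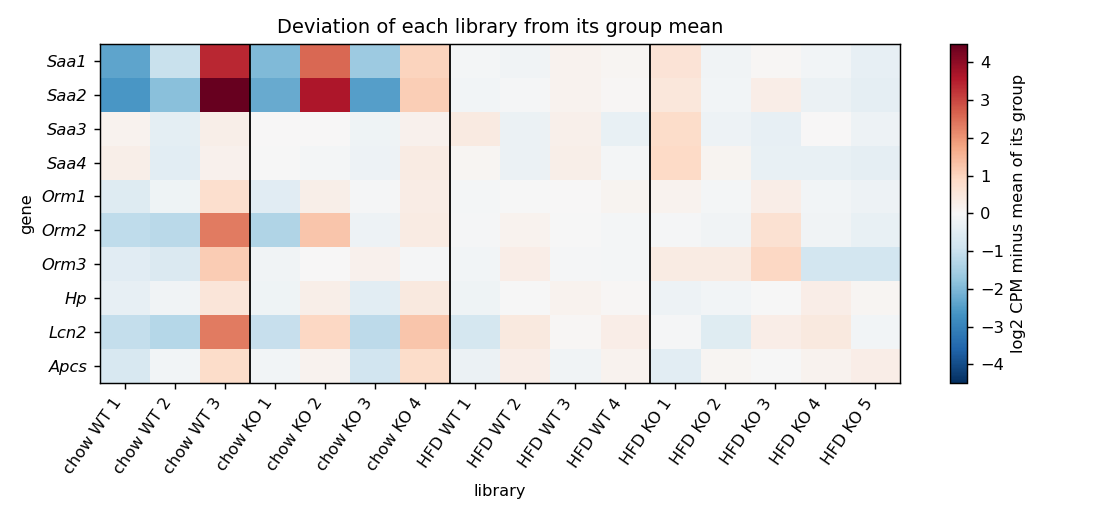
Log2 CPM of each gene (rows) in each library (columns) minus the mean of its group, red above and blue below; black lines separate the groups. The deepest colours belong to Saa1, Saa2, Orm2 and Lcn2 in chow libraries, while Saa3 and Saa4 stand out in high-fat knockout 1.

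Among 11381 other genes, those whose deviations were most like the mean of Saa1 and Saa2 were Itih4 (r = 0.91), Thsd1 (0.87), Prg4 (0.86), Cenpc1 (0.86) and Cpb2 (0.85). Itih4, an inter-alpha-trypsin inhibitor heavy chain and a known acute phase protein, read 1374, 1464 and 2989 CPM in chow wild type and 956, 1844, 1052 and 1993 CPM in chow knockout, the same high libraries as Saa1. For Lcn2 the closest was Hpx, the haem-binding hemopexin (r = 0.89), followed by Abhd14b, Sema4a, Camk2n2 and Prps2 (0.85 to 0.84). For Orm2 they were Camk2n2 (0.90), Cenpc1 (0.89), Aktip (0.87), Ambp (0.85) and Tmem143 (0.85). For Saa3 they were Rxra (0.92), Mbd1 (0.91), Itpr2 (0.90), Aatk (0.87) and Sned1 (0.84). In the 14 libraries left without chow wild type 3 and high-fat knockout 1, the r of Itih4 was 0.84, of Hpx 0.86, of Rxra 0.87 and of Tmem143 0.50. Ambp fell to 0.52, Camk2n2 to 0.64 with Lcn2 and Cpb2 to 0.66. In order of r they then stood at places 566, 301 and 161, and Tmem143 at 653. The other values lay between 0.70 and 0.87.

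Most other acute phase genes that passed were lower on high-fat diet. Of 24 further positive acute phase genes tested, 4 rose and 15 fell with high-fat diet in wild type, and 6 rose and 10 fell in knockout, with median log2 differences of -0.66 and -0.40 against -0.02 and -0.01 for all genes. Cd14, the lipopolysaccharide co-receptor, rose by 2.99 ± 0.24 (log2, SE) in wild type and Steap4, a metalloreductase, by 1.39 ± 0.18, while complement C3 fell by 1.08 ± 0.14. Of these 24, 12 had their highest chow level in chow wild type 3, against 18.6% of all genes. Of 15 negative acute phase genes, which fall in inflammation, 1 rose and 9 fell in wild type and 1 rose and 7 fell in knockout, among them Fetub (-1.14 ± 0.10 in wild type), Apoa1 (-0.67 ± 0.10) and Rbp4 (-0.67 ± 0.10). Positive and negative acute phase genes therefore both fell more often than they rose. Beside these counts, 29.4% of all genes passed in wild type (15.2% upwards) and 33.6% in knockout (17.4% upwards). Hepatocyte markers also fell more often than they rose. Among 15 of them tested, 10 fell and 0 rose in wild type. Alb, Apoa1, Ttr, Trf, Ahsg and Ambp are in both this list and the negative list, so the 2 counts are not independent. In knockout 8 of the 15 hepatocyte markers fell and 0 rose.

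Counts for the genes upstream stand beside 29.4% of all genes that passed for diet in wild type and 33.6% in knockout. Of 12 acute phase cytokines listed, 8 were in the deposited gene table and 6 were tested. Il6, the gene of interleukin-6, had no row. Of the 6 tested, 4 rose in wild type and 3 in knockout, and none fell. Lif was listed at 0 in all 3 chow wild-type libraries and at a mean of 0.482 CPM in high-fat wild type. Clcf1 (1.44 ± 0.39) and Il1a (0.96 ± 0.27) rose from low levels in wild type. Of 12 cytokine receptors 4 rose and 3 fell in wild type, with Osmr, the oncostatin M receptor, at 1.32 ± 0.20, and 4 rose and 2 fell in knockout, with Il6ra, the interleukin-6 receptor, at -0.94 ± 0.21. Of 27 signal transducers, transcription factors and feedback genes 3 rose and 4 fell in wild type, and 2 rose and 7 fell in knockout. The hepatocyte factors Hnf4a (-0.88 ± 0.11) and Creb3l3 (-0.73 ± 0.07) were among those that fell in wild type. Of 19 receptors and binding partners of the members 6 rose and 2 fell in wild type and 6 rose and 3 fell in knockout, led by Tlr2, a receptor of serum amyloid A, at 2.69 ± 0.23 in wild type. Hmox1, which degrades the haem that haptoglobin salvages, rose by 1.64 ± 0.16.

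No gene of these 6 lists passed the edgeR test between genotypes on either diet, as a mean over diets, or for the difference between diets. The smallest p values belonged to Abca1, the cholesterol exporter and an established miR-33 target, at 0.27 ± 0.06 as a mean over diets (adjusted p = 0.955), and to Cd14 at -1.26 ± 0.30 (adjusted p = 0.416) and Hmox1 at -0.80 ± 0.20 (adjusted p = 0.451) for the difference between the genotype effects on the 2 diets. Abca1 was also first on high-fat diet, at 0.31 ± 0.08 (adjusted p = 0.920), and Hmox1 on chow, at 0.60 ± 0.16 (adjusted p = 0.763). Socs3, the feedback inhibitor that interleukin-6 induces, read 10.2, 13.9 and 15.3 CPM in chow wild type and 11.8, 17.1, 9.84 and 28.5 CPM in chow knockout. Its highest chow value was in knockout 4, while that of Saa1 was in wild type 3. Within each genotype, the chow libraries high for Saa1 (wild type 3, knockout 2 and knockout 4) also had the highest Socs3. The gene Il6 had no row in the deposited gene table, and the part of interleukin-6 was not tested.

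Markers of the cell types in liver moved with diet beside these results. Summed hepatocyte markers were 112313 to 124164 CPM on chow and 83171 to 108045 on high-fat diet. Stellate cell markers were 320 to 475 CPM on chow and 529 to 841 on high-fat diet, and cholangiocyte markers 28.1 to 53.4 and 82.7 to 253. Adipocyte-list markers summed to 546 to 643 and 665 to 872. Of the 8 on that list, 5 were in the deposited gene table, without Plin1, Lep and Retn. Adipoq was at most 0.212 CPM, so this sum came from other genes of the list. Of 4 tested, 1 rose with diet in each genotype. Erythroid markers (498 to 620 on chow, 514 to 2162 on high-fat diet), sinusoidal endothelial markers (255 to 405 on chow, 259 to 377 on high-fat diet), T and NK cell markers (2.31 to 5.88 and 2.82 to 6.92) and B and plasma cell markers (10.5 to 19.3 and 7.99 to 170) overlapped between diets. The part of cell composition in the diet differences of Orm3 and Saa3 was not tested.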

How the data were processed

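Liver RNA was measured in 16 libraries. Estimated counts per gene were deposited by the authors in 1 table of 23258 rows; per the labels' protocols, ribosomal RNA was removed with Ribo-Zero, reads were trimmed and aligned with TopHat2 and abundances were computed with Cuffdiff. No label states the tool versions or the annotation, and the submitters' processing notes name mm10. The labels pair a small RNA library kit and 45 cycles with reads of 75 bases, which could not be reconciled. Many estimated counts are fractions; how reads that match several copies were divided is not stated, so values of near-identical genes can share error.

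Estimated counts were rounded and tested in edgeR 4.0.16 (filterByExpr, TMM, robust quasi-likelihood fit, 1 mean per group, 12 residual degrees of freedom), with Benjamini-Hochberg adjustment over 16830 genes and a threshold of 0.05. A value that passed has an adjusted p under that threshold; every adjusted p without another name is edgeR's, and every value after ± beside a log2 difference is a standard error. Standard errors were recovered from each fitted difference and its quasi-likelihood F value. Correlations and likeness used log2 CPM with a prior count of 2. Shares of copies were compared with exact permutation tests over libraries. Chromosome positions follow GENCODE M21 for mm10, whose limits matched all 10 members once the deposited ends, which lie 1 base further, were shortened; promoter windows are RefSeq's for GRCm38.p6. The scripts were tested on simulated data. Alternatives were DESeq2 1.42.0, limma-voom (limma 3.58.1), other scaling and filters, fits of only the groups compared, and leaving out libraries. A planned comparison of protein sequences was not run, and transcripts were compared in its place, chosen after the files were seen.

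The 10 members, the 6 gene lists and the 10 marker lists were chosen with earlier results of these data known. Named genes were all members, up to 3 per list and comparison that passed with the smallest p (or the 1 with the smallest p), and the 5 genes most like each of 4 patterns. A gene that this rule selects is not reported here. Socs3, Adipoq and single libraries named for their values were chosen after those values were seen. No batch and no pairing of libraries is given in the labels. Counts limit the precision mainly for Orm3, with 16 counts in its lowest library.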

Additional observations from a re-analysis of the deposited data

Results flagged for a closer look

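Of 30 sets of values (10 genes in each group of 4 or 5 libraries), 4 had a single library far from the others, by a gap past Dixon's 95% critical value; chance flags about 1 in 20 groups. Saa2 in chow knockout 2 was 408 CPM, with a gap to the next library of 0.840 of the range of its group. Saa3 in high-fat knockout 1 was 8.42 CPM, with a gap of 0.767 of the range, in the library that was also highest for Saa4. Orm2 in high-fat knockout 3 was 54.3 CPM, with a gap of 0.792 of the range, and that library was also the highest for Orm3, at 12.6 CPM. Orm3 in high-fat wild type 2 was 7.999 CPM, with a gap of 0.876 of the range. The criterion was applied to groups of 4 or 5 libraries, so the 3 chow wild-type libraries were not looked at in this way.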

How the results depend on the processing

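Over 26 alternative settings, 1407 of 1510 values of single members kept both their direction and their side of the threshold. A further 93 changed sign without passing on either side, 22 of them without chow wild type 3, 26 without that library and high-fat knockout 1, and 10 with limma-voom. Of the remaining 10, 4 are the lost Saa3 calls and 6 the gained calls of Orm1, Orm2, Lcn2 and Apcs given above; with both libraries left out Orm2 and Lcn2 passed with adjusted p = 0.0118 and 0.0472. Members that passed numbered 4 for diet in wild type with both libraries left out. When single libraries were left out they numbered 1 to 4. The count was 4 without chow wild type 3, and 1 without chow wild type 2, high-fat wild type 1 or high-fat wild type 3. Beside these, 3711 to 5102 of all genes passed for diet in wild type without single libraries. The other member counts did not change.

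Genes that passed between genotypes were few in every setting. On high-fat diet there were 1 in the reported fit, 7 with DESeq2, 2 with limma-voom, 3 with no filter, 4 in the fit of only the groups compared and 1 to 4 without single libraries, the most without chow knockout 4. On chow there were 1, 2 with DESeq2, 0 with limma-voom, 0 with only the groups compared and 0 to 3 without single libraries, again the most without chow knockout 4. The mean over diets gave 3, 1 with limma-voom and 2 to 5 without single libraries (5 without chow wild type 3). The difference between diets gave 0, 1 with DESeq2 and 0 to 4 without single libraries (4 without chow wild type 1). For these counts and for the members' sign changes, the cause was not tested. Summing copies leaves no value for a single copy, so it gives no count of members; the sums are in the report. CPM on unscaled totals moved group means by -13.4% to 10.6%, less than 1 SD for 35 of 40. No paired analysis was possible because the labels carry no replicate numbers.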

Other observations

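The members differed widely in how far chow wild type 3 stood above its group. Between chow wild type 3 and the lowest chow wild-type library, Saa2 differed 139-fold, Saa1 53.5-fold, Lcn2 12.1-fold, Orm2 11.8-fold, Orm3 3.62-fold, Apcs 2.91-fold, Orm1 2.55-fold and Hp 1.89-fold. For Saa3 and Saa4 the highest and lowest chow wild-type libraries differed 1.63-fold and 1.67-fold, and chow wild type 3 was not the highest for Saa4. Among 15 negative acute phase genes, 6 had their highest chow value in that same library, against 18.6% of all tested genes. Where the genes of this list were lowest was not counted.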
